A study of Homo sapiens with 6 samples.

Results

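Ribosome footprints of 8 genes for redox selenoproteins (GPX4, GPX1, TXNRD1, TXNRD2, MSRB1, SELENOW, SELENOH and SEPHS2) were examined in cells depleted of the tRNA methyltransferase TRMT61A. The genes were chosen by family and Ensembl ID from the deposited count table, and all 8 were found among its 62492 IDs. No value threshold defines the 8, but they were selected with earlier footprint values of the same libraries and comparison in view. Their levels and differences are therefore given as a description, and the p-values printed beside them come from the fit over all features and support nothing about the group.

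WPMY-1 is a human myofibroblast line from prostate stroma, made immortal with a viral antigen. A group of 3 libraries came from WPMY-1 cells with a short hairpin RNA against TRMT61A (genotype TRMT61A knockdown) and 3 from WPMY-1 cells with a control hairpin (genotype TRMT61A wildtype). TRMT61A is the catalytic subunit of the enzyme that places 1-methyladenosine in the T loop of tRNAs. The labels name a single hairpin against TRMT61A and give no number of clones, no time after transduction and no separate cultures, so the p-values measure library-to-library spread alone, part or all of which may be technical. Ribosome profiling reads the mRNA fragments that stay covered by a ribosome during RNase I digestion. A footprint count therefore depends on the amount of an mRNA and on its ribosome load, and these cannot be told apart from footprint libraries alone.

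Selenoproteins carry selenocysteine, an amino acid that is inserted at a UGA codon, which otherwise stops translation. A dedicated tRNA, itself a carrier of 1-methyladenosine, reads that UGA together with the factors SECISBP2 and EEFSEC, which are guided by a hairpin in the 3′ untranslated part of the mRNA. The counts used here are totals per gene, so footprints before and after that UGA are pooled. They do not show whether ribosomes inserted selenocysteine or stopped there. In selenocysteine-limited rodent tissues and mammalian cells, GPX1, SELENOW, SELENOH and MSRB1 are known to be lost readily, whereas GPX4 and TXNRD1 are known to be retained. Selenocysteine is the catalytic residue of the glutathione peroxidases GPX4 and GPX1, of the thioredoxin reductases TXNRD1 and TXNRD2, and of the methionine sulfoxide reductase MSRB1.

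The stretch that begins with the earliest ATG after the annotated start is shown for GPX4 and both thioredoxin reductases, as far as the RefSeq windows (GRCh38.p14) hold it and for at most 30 bases, with the ATG in capitals. Each of these ATGs is the start codon of a known form of its protein, GPX4 and TXNRD2 in their mitochondrial forms. The TXNRD1 ATG follows the most upstream of its annotated starts and need not be that of the main form. The earliest ATG in the SEPHS2 window is not known as the start codon of the protein and is not shown, and the MSRB1 window holds only 7 bases from its ATG on.
GPX4 start of reading frame, chr19:1104044-1104073, + strand: ATGagcctcggccgcctttgccgcctactg
TXNRD1 start of reading frame, chr12:104215803-104215828, + strand: ATGggctgcgccgagggcaaggcagt
TXNRD2 start of reading frame, chr22:19941774-19941803, - strand: ATGgcggcaatggcggtggcgctgcgggga

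The 250 bases before the RefSeq start are shown for the 2 genes whose footprints passed the threshold below, GPX4 and TXNRD1, and for the 2 genes with positive fold changes, GPX1 and SELENOH, all in GRCh38.p14. Capitals mark CCAAT on either strand in GPX4, the antioxidant response element core TGACNNNGC on either strand in TXNRD1, and the palindrome CACGTG, an E-box, in GPX1 and SELENOH. Only 1 motif is marked per gene, and other matches are left unmarked, such as CCAAT at -174 in TXNRD1. CACGTG also stood in the window of SEPHS2, which is not shown and whose fold change was negative. CCAAT is bound by NF-Y, the antioxidant response element by NRF2, and CACGTG by the basic helix-loop-helix factors of the MYC, USF and TFEB kind. Only the window of the most upstream start is shown for GPX4 and TXNRD1, and it need not be the main promoter. The other TXNRD1 window, chr12:104286782-104287031, also holds a TGACNNNGC match, at -102. Which starts these cells use was not measured.
GPX4 promoter, chr19:1103744-1103993, + strand: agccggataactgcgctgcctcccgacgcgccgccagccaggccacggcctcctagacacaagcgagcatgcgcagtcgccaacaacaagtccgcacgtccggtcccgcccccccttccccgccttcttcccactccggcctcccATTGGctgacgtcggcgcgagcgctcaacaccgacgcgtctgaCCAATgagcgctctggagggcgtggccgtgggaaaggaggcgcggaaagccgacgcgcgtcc
TXNRD1 promoter, chr12:104215529-104215778, + strand: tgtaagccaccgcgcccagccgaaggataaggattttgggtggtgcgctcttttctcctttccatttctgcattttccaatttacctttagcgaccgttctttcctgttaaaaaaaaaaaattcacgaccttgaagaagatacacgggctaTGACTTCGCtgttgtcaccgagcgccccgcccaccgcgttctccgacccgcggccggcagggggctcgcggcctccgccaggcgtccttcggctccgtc
GPX1 promoter, chr3:49358354-49358603, - strand: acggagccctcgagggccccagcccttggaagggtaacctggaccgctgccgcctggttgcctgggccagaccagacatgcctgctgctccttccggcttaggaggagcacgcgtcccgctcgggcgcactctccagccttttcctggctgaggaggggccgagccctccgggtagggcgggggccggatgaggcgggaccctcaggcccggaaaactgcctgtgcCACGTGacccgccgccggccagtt
SELENOH promoter, chr11:57741241-57741490, + strand: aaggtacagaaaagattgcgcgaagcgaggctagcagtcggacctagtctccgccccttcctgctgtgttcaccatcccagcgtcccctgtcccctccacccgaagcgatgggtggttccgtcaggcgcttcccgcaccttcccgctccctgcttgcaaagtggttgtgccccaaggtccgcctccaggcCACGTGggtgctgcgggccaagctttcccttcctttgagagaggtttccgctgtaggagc

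All 8 genes had a promoter window in RefSeq, 13 windows in all, of which some of one gene overlap. TGACNNNGC stood in 2 of the 13 windows, both of TXNRD1, at -99 and -102 from their starts, and in 10.9% of all 35116 windows of the same length. CACGTG stood in 3 windows, at -24 in GPX1, -60 in SELENOH and -163 in SEPHS2, against 6.34% of all windows. CCAAT stood in 7 windows of 5 genes, against 32% of all windows. The GC box GGGCGG, bound by SP1, stood in 10 windows of 7 genes, against 42.6% of all windows. Each motif was searched on both strands, and 0 matches of different motifs overlapped. These matches describe letters only, and the libraries do not measure binding at them.

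The libraries held 12704354 to 17752247 counts in the knockdown group and 6771455 to 8008896 counts in the control group. The 8 genes together took 0.0284%, 0.0378% and 0.0409% of the counts of knockdown libraries 1 to 3, against 0.0672%, 0.0749% and 0.0818% of those of control libraries 1 to 3. Wilson 95% intervals of these shares were narrow, at 0.0276% to 0.0292% in knockdown library 1 and 0.0798% to 0.0839% in control library 3, and they cover counting error only. The 50 most abundant features took 69.7% to 73.0% of the knockdown counts and 61.4% to 70.7% of the control counts. Outside those features the 8 genes held 0.125% ± 0.017 of the knockdown counts and 0.213% ± 0.015 of the control counts (SD, n = 3 each), and the groups did not overlap on either denominator. No ID other than the 8 could be paired with a gene name, so the level of TRMT61A, cell type markers and the other genes of the selenocysteine pathway were not analysed here.

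Levels below are footprint counts scaled to a common library total by TMM (CPM), and a fold change is knockdown over control from edgeR's quasi-likelihood test with Benjamini-Hochberg adjustment over 11653 tested features. All 8 genes passed the filter on low counts. Footprints of 2 of the 8 genes, GPX4 and TXNRD1, passed an adjusted p of 0.05, both lower in the knockdown. Over all tested features 3.12% passed in either direction, 1.64% lower and 1.48% higher in the knockdown. Because the genes were grouped with this comparison known, nothing is read from that count. The CPM of the groups did not overlap for 6 of the 8 genes, 5 lower and SELENOH higher in the knockdown, against 24.8% of all tested features (12.7% lower, 12.2% higher). The median log2 fold change was -0.78 over the 8 genes and -0.0047 over all tested features.

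**Figure D1:**
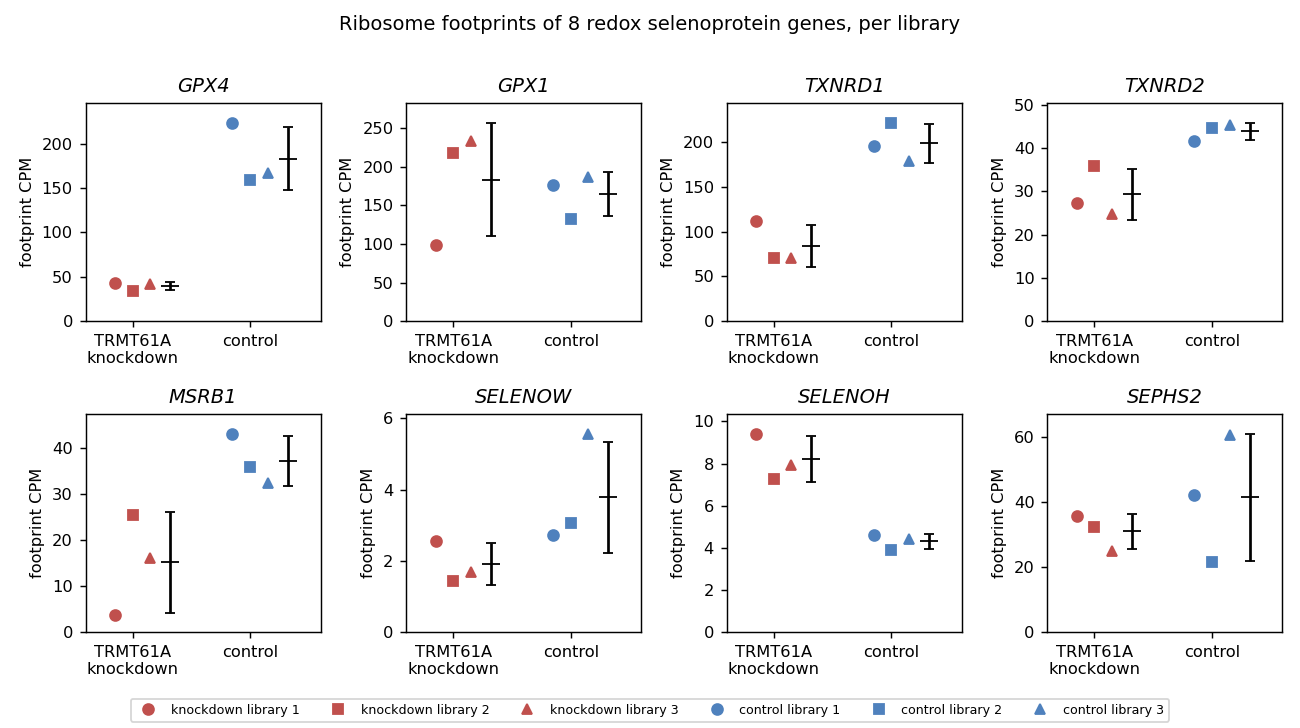
Footprint CPM (vertical axis, from 0, TMM-scaled) of each gene in the 3 knockdown libraries (red) and the 3 control libraries (blue). Marker shapes give the library number, and black bars give mean ± SD. GPX4 sits between 34.2 and 42.7 CPM in the knockdown and between 158 and 224 CPM in the control, while GPX1 and SEPHS2 overlap between groups.

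GPX4 (ENSG00000167468) is the glutathione peroxidase that reduces phospholipid hydroperoxides in membranes and holds back ferroptosis, an iron-dependent form of cell death. It had 649, 404 and 510 raw counts in knockdown libraries 1 to 3, against 1648, 1292 and 1468 in control libraries 1 to 3, although the knockdown libraries were deeper. This gave 42.7, 34.2 and 41.3 CPM in the knockdown libraries, against 224, 158 and 167 CPM in the control libraries. Every knockdown library lay far below every control library. The means were 39.4 ± 4.5 CPM and 183 ± 35 CPM (SD, n = 3 each), so GPX4 footprints fell by 2.21 on the log2 scale (SE 0.24, 95% interval -2.73 to -1.69, adjusted p = 0.0016 in edgeR), a control level 4.64 times that of the knockdown. It ranked 5 by p-value among the 11653 features, and 1.67% of them had a lower log2 fold change. The coefficient of variation was 11.5% within the knockdown and 19.4% within the control, against medians of 18.2% and 19.3% for the 2331 features in the same abundance class, of 5 equal classes.

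GPX1 (ENSG00000233276) is the abundant cytosolic glutathione peroxidase that reduces hydrogen peroxide. It had 1503, 2576 and 2880 raw counts in the knockdown libraries, against 1301, 1080 and 1642 in the control libraries. The CPM values were 98.8, 218 and 233 in the knockdown, against 176, 132 and 186 in the control. Knockdown library 1 lay below all control libraries and knockdown libraries 2 and 3 above all of them, so the groups overlapped. The log2 fold change was 0.15 ± 0.31 (SE, 95% interval -0.52 to 0.82, adjusted p = 0.885 in edgeR), and the interval holds both a moderate rise and a moderate fall. The variation of GPX1 within the knockdown, 40.2%, was above the median of 18.2% for features of like abundance. The sign was positive with TMM scaling and negative, at -0.11, with library size alone, a scaling that moved the median of all features to -0.30. Without knockdown library 1 the log2 fold change was 0.45, and without knockdown library 3 it was -0.05. RefSeq lists the pseudogenes GPX1P1 and GPX1P2, and reads shared with them cannot be separated in these counts.

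The ratio of both peroxidases within a library does not depend on scaling. GPX1 counts were 2.32, 6.38 and 5.65 times the GPX4 counts in knockdown libraries 1 to 3, against 0.789, 0.836 and 1.12 times in control libraries 1 to 3. The geometric means were 4.37 and 0.904, a difference of 2.27 on the log2 scale, and the groups did not overlap. This difference mostly repeats the log2 fold change of GPX4, -2.21, since that of GPX1 was 0.15 ± 0.31 (SE). The ratio compares how the genes differ between groups and not how many proteins each yields. The genes differ in length, and footprints before and after the selenocysteine UGA are pooled.

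**Figure D2:**
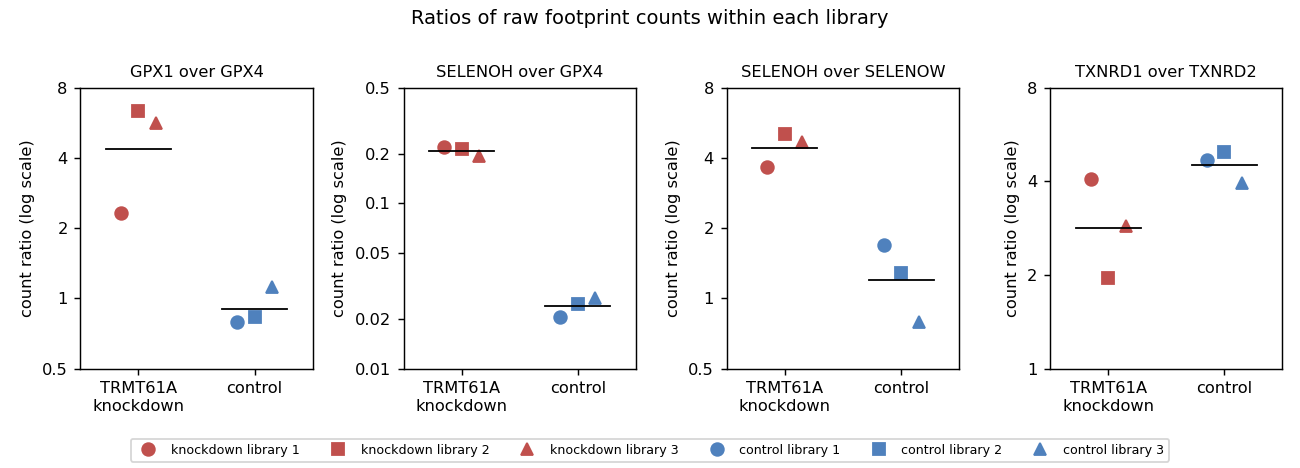
Ratios of raw footprint counts of 2 genes within each library (log scale, no normalisation needed), for the 3 knockdown (red) and 3 control libraries (blue). Black lines are geometric means. GPX1 over GPX4, SELENOH over GPX4 and SELENOH over SELENOW are higher in every knockdown library than in any control library, whereas TXNRD1 over TXNRD2 overlaps.

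TXNRD1 (ENSG00000198431) is the cytosolic thioredoxin reductase, which keeps thioredoxin reduced and is a classical NRF2 target. Its raw counts were 1695, 828 and 875 in the knockdown libraries, against 1440, 1810 and 1580 in the control libraries. In CPM these were 111, 70.2 and 70.9, against 195, 222 and 179. All knockdown libraries were below all control libraries, and knockdown library 1 was the highest of its group. TXNRD1 footprints fell by 1.24 on the log2 scale (SE 0.25, 95% interval -1.78 to -0.70, adjusted p = 0.0206 in edgeR). That call was lost in 5 of 6 fits that left out a library, at adjusted p = 0.0588, 0.116 and 0.0689 in edgeR without control libraries 1, 2 and 3 and at 0.111 and 0.0924 without knockdown libraries 2 and 3. The log2 fold change in the 6 fits ran from -1.50 to -1.12.

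TXNRD2 (ENSG00000184470) is the mitochondrial thioredoxin reductase. It measured 27.4, 35.9 and 24.7 CPM in the knockdown libraries, against 41.8, 44.6 and 45.5 CPM in the control libraries. The groups did not overlap, and the control libraries lay close together with a coefficient of variation of 4.42%. The log2 fold change of -0.58 ± 0.25 (SE, 95% interval -1.13 to -0.037) did not pass after adjustment (adjusted p = 0.269 in edgeR). TXNRD1 counts were 4.07, 1.95 and 2.87 times the TXNRD2 counts in the knockdown libraries, against 4.68, 4.97 and 3.94 times in the control libraries. These ratios overlapped between groups, so a larger difference of the cytosolic than of the mitochondrial enzyme was not separated from the spread between libraries.

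MSRB1 (ENSG00000198736) reduces the R form of methionine sulfoxide in proteins, actin among them. It had 57, 302 and 200 raw counts in the knockdown libraries, against 318, 293 and 286 in the control libraries. These were 3.75, 25.6 and 16.2 CPM in the knockdown, against 43.1, 35.9 and 32.4 CPM in the control. All knockdown libraries were lower, and they differed widely among themselves. Exact Poisson 95% intervals were 2.84 to 4.86 CPM in knockdown library 1, 22.8 to 28.7 CPM in library 2 and 14.0 to 18.6 CPM in library 3. These intervals did not overlap, but they take each read as independent, and without molecular identifiers copies of a molecule cannot be set apart. The coefficient of variation was 72.2% in the knockdown, against a median of 26.2% over features of like abundance, and 14.7% in the control. The log2 fold change was -1.30 ± 0.51 (SE, 95% interval -2.40 to -0.19, adjusted p = 0.219 in edgeR). Without knockdown library 1 it was -0.83 and without knockdown library 2 it was -1.90, so the size rests on which knockdown library is counted. RefSeq lists a pseudogene, MSRB1P1.

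SELENOH (ENSG00000211450) is a small nuclear and nucleolar protein of thioredoxin-like fold. It had 143, 86 and 98 raw counts in the knockdown libraries, against 34, 32 and 39 in the control libraries. The levels were 9.40, 7.29 and 7.94 CPM in the knockdown, against 4.61, 3.92 and 4.42 CPM in the control. SELENOH was the only gene of the 8 with every knockdown library above every control library. RefSeq places another gene, TMX2-CTNND1, over the SELENOH promoter window, and how reads of overlapping genes were counted is not given. Its log2 fold change was 0.93 ± 0.52 (SE, 95% interval -0.21 to 2.06) and did not pass (adjusted p = 0.433 in edgeR). The means of 8.21 ± 1.08 CPM and 4.32 ± 0.36 CPM (SD, n = 3 each) lay further apart than the spread within either group, with coefficients of variation of 13.2% and 8.23%. The median coefficients in its abundance class were 51.9% and 43.6%. The gene-wise dispersion of edgeR, which borrows from features of like abundance, gave SELENOH a coefficient of biological variation of 44.9%. The quasi-likelihood test estimates spread separately, and why SELENOH did not pass was not tested. In the abundance class of SELENOH 0.343% of 2330 features passed the threshold, against 8.71% in the class that holds GPX4, GPX1, TXNRD1, TXNRD2 and SEPHS2.

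SELENOW (ENSG00000178980) is a small selenoprotein of thioredoxin-like fold, best known from muscle. It was the least covered of the 8, with 39, 17 and 21 raw counts in the knockdown libraries, against 20, 25 and 49 in the control libraries. These were 2.56, 1.44 and 1.70 CPM, against 2.71, 3.07 and 5.56 CPM. The groups did not overlap, but by a margin far within counting error. The exact Poisson 95% interval of knockdown library 1 was 1.82 to 3.51 CPM and that of control library 1 was 1.66 to 4.19 CPM. The log2 fold change was -0.99 ± 0.90 (SE, 95% interval -2.94 to 0.97, adjusted p = 0.684 in edgeR), and the interval holds differences of either sign. RefSeq lists a pseudogene, SELENOWP1.

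SELENOH and SELENOW had opposite signs. SELENOH counts were 3.67, 5.06 and 4.67 times the SELENOW counts in the knockdown libraries, against 1.70, 1.28 and 0.796 times in the control libraries. SELENOH counts were 0.220, 0.213 and 0.192 times the GPX4 counts in the knockdown, against 0.0206, 0.0248 and 0.0266 times in the control. That ratio had geometric means of 0.208 and 0.0239, a difference of 3.13 on the log2 scale. It is the widest among the 9 within-library ratios computed because it pairs the highest and the lowest log2 fold change of the 8 genes. The ratio thus restates both fold changes, of which that of SELENOH did not pass the threshold. Its standard deviation on the log2 scale was 0.103 within the knockdown and 0.188 within the control.

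SEPHS2 (ENSG00000179918) makes selenophosphate, the selenium donor for selenocysteine synthesis, and is itself a selenoprotein. Its raw counts were 541, 383 and 308 in the knockdown libraries, against 311, 177 and 534 in the control libraries. The levels were 35.6, 32.5 and 25.0 CPM in the knockdown, against 42.2, 21.7 and 60.6 CPM in the control. The knockdown libraries lay between control library 2 and control library 1. The control group varied by 46.9%, against a median of 19.3% for features of like abundance. The log2 fold change was -0.42 ± 0.35 (SE, 95% interval -1.17 to 0.33, adjusted p = 0.637 in edgeR). It ran from -0.73 without control library 2 to -0.04 without control library 3. RefSeq lists a pseudogene, SEPHS2P1.

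**Figure D3:**
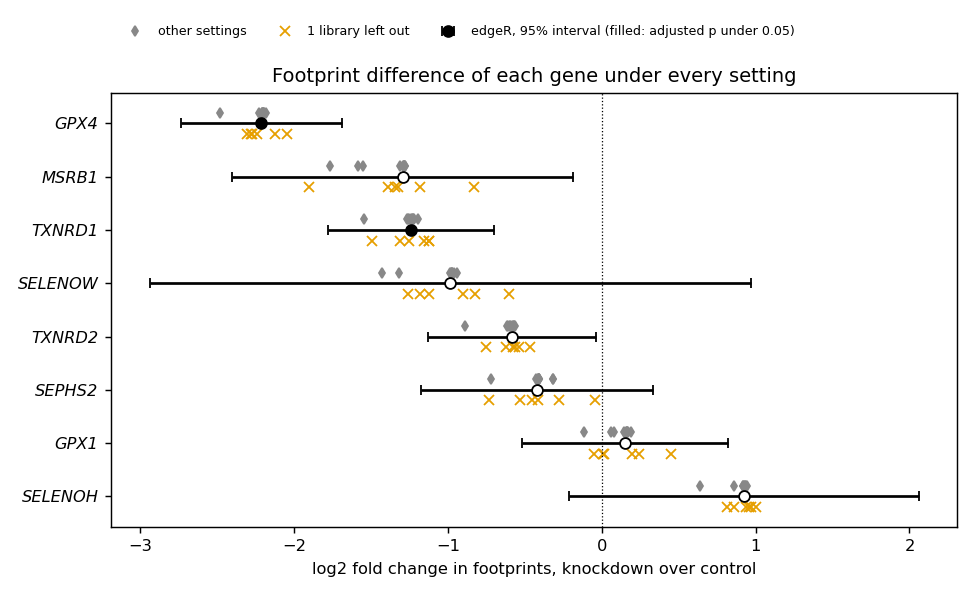
Log2 fold change in footprints, knockdown over control (horizontal axis), for each gene, ordered from GPX4 to SELENOH. Circles with bars are the edgeR estimate and its 95% interval, filled where the adjusted p was under 0.05. Crosses are fits with 1 library left out and diamonds are the other settings. GPX4 stays between -2.48 and -2.05, and GPX1 lies on both sides of 0.

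The genes did not move as a single block. Of the 2 genes known to be retained when selenocysteine is limiting, GPX4 had a log2 fold change of -2.21 and TXNRD1 one of -1.24. Of the 4 known to be lost readily, MSRB1 was at -1.30, SELENOW at -0.99, GPX1 at 0.15 and SELENOH at 0.93, and none of these passed the threshold. TXNRD2, at -0.58, and SEPHS2, at -0.42, were placed in neither kind and did not pass either. That ranking comes from other cells and tissues under selenocysteine limitation, and footprint counts per gene under TRMT61A knockdown are not a like measure. The difference between these kinds of gene was not tested, and nothing about selenocysteine supply is read from it. No measure of selenium or of the selenocysteine tRNA is among these data.

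The division of footprints among the 8 genes differed between groups. GPX4 held 12.9%, 8.05% and 9.81% of their summed CPM in knockdown libraries 1 to 3, against 30.6%, 25.5% and 24.5% in control libraries 1 to 3. GPX1 held 29.8%, 51.3% and 55.4% in the knockdown libraries, against 24.2%, 21.3% and 27.4% in the control libraries. SELENOH, a small part throughout, held 2.84%, 1.71% and 1.89%, against 0.632%, 0.631% and 0.650%. GPX4 was the smaller part in every knockdown library, and GPX1 and SELENOH were the larger part in every knockdown library. The parts of a library add up to a whole, so a part can grow without a higher level of its gene. In knockdown library 1 GPX1 held a larger part although its level, 98.8 CPM, was below that of every control library. TXNRD1 held 33.6%, 16.5% and 16.8% in the knockdown, against 26.8%, 35.7% and 26.3% in the control, so that knockdown library 1 lay within the control range. Knockdown library 1 had the lowest CPM of its group for GPX1 and MSRB1 and the highest for GPX4, TXNRD1, SELENOW, SELENOH and SEPHS2. Such a part follows gene length as well as translation and is compared here only for the same gene between libraries.

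**Figure D4:**
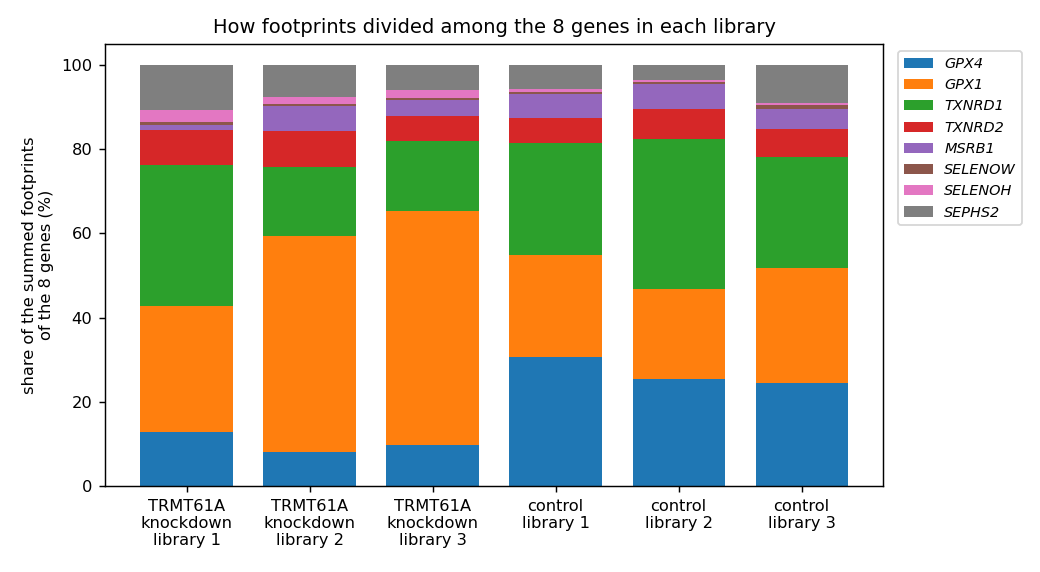
Share of the summed CPM of the 8 genes (vertical axis, %) held by each gene in each library, knockdown libraries at the left and control libraries at the right. The GPX4 band is between 8.05% and 12.9% in the knockdown and between 24.5% and 30.6% in the control, and the GPX1 band exceeds 50% in knockdown libraries 2 and 3.

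Of the 8 genes GPX4 lay furthest out among all tested features. A larger absolute log2 fold change than that of GPX4 was found in 2.94% of the features. The corresponding shares were 14.0% for MSRB1, 15.6% for TXNRD1, 23.3% for SELENOW, 25.8% for SELENOH, 44.5% for TXNRD2, 57.0% for SEPHS2 and 83.0% for GPX1. The median absolute log2 fold change over all features was 0.51, which SEPHS2 and GPX1 did not reach. Within its own abundance class, the share of features with a larger absolute log2 fold change was 0.601% for GPX4, 6.35% for MSRB1, 6.86% for TXNRD1, 31.4% for TXNRD2, 32% for SELENOH, 42.8% for SELENOW, 45.5% for SEPHS2 and 77.3% for GPX1. The fold change of SELENOW and SELENOH, in the classes of low abundance, was thus common there.

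**Figure D5:**
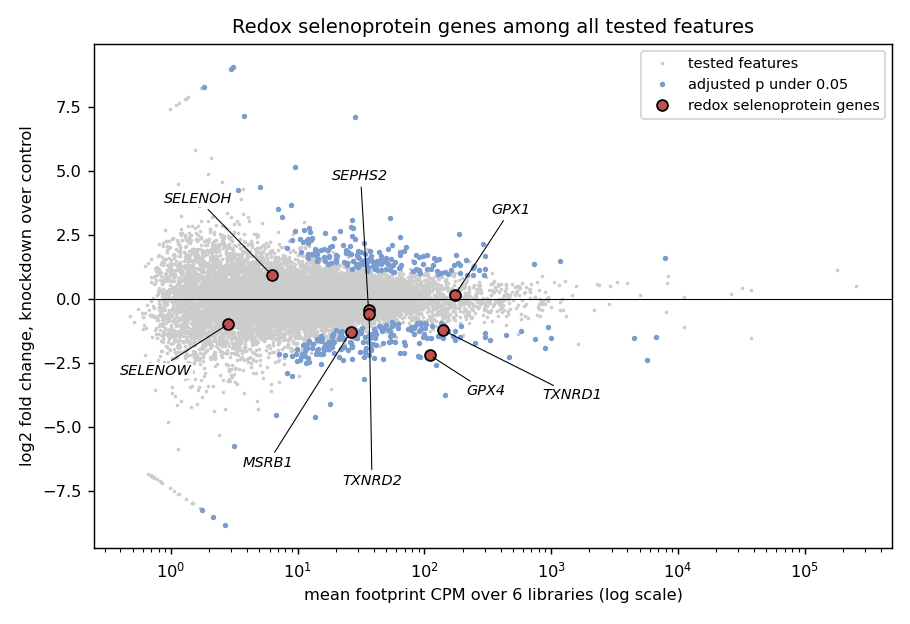
Mean footprint CPM over the 6 libraries (horizontal axis, log scale) against log2 fold change, knockdown over control, for 11653 tested features (grey), those with adjusted p under 0.05 (blue) and the 8 genes (red). GPX4, at -2.21, lies at the lower edge of the cloud, and GPX1, at 0.15, lies in its middle.

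The features whose log2 CPM followed GPX4 most closely over the 6 libraries, among 5902 others with a mean of at least 10 CPM, were ENSG00000127804.13_6 and ENSG00000070087.14_6, which the files do not pair with names. Pearson's r with GPX4 was 0.991 for both. The values over 6 libraries share the same depths and the same division into groups, and 82 of the 5902 features had an r above 0.95. ENSG00000070087.14_6 averaged 69.1 ± 5.7 CPM in the knockdown and 190 ± 37 CPM in the control (SD, n = 3 each).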

How the data were processed

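The authors deposited a table of unnormalised read counts, with a row for each Ensembl gene and a column for each library. The submitters' processing notes name fastp, Bowtie 1.3.1 and hg38. How reads were counted, on which annotation and strand, is not given in the sources used here, so overlapping and near-identical genes are uncertain. The numeric suffix on most IDs is the form of GENCODE annotation lifted to GRCh37, at odds with hg38, and the build behind the counts is therefore unsettled. The control columns carry the name of a vector and were assigned to the control samples by assay and number. The table's 6 columns named for RNA match none of the samples described here and were not used. The gene table (GRCh38.p14) matched 0 of the IDs, so names cover the 8 genes only, and the other gene lists foreseen were not analysed here.

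Counts were filtered by filterByExpr (11653 features, 99.8% of counts), scaled by TMM and tested with edgeR 4.0.16 in R 4.3.3 by the two-sided quasi-likelihood F-test over all 6 libraries. The script was also run on counts simulated from the kind of model that edgeR fits, which checks the code and not whether that model suits these libraries. Alternatives used DESeq2 1.42.0, limma 3.58.1 with voom, other scalings and filters, a replicate block and each library left out. All 8 genes are named, with the 2 features most like GPX4. The genes, lists and tests were chosen with earlier results of these data known. A count of 0 would allow up to 3 counts, 4.43e-05% of the shallowest library. Promoters were matched by symbol in RefSeq. Without molecular identifiers, intervals cover counting error only.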

Additional observations from a re-analysis of the deposited data

How the results depend on the processing

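The GPX4 call held in all 16 alternatives, at log2 fold changes of -2.48 to -2.05 and adjusted p from 2.63e-17 to 0.0251. That of TXNRD1 held in 11 of 16 and was lost only in 5 of the fits with 1 library left out (adjusted p 0.0588 to 0.116 in edgeR). Those fits also have fewer samples. The number of the 8 genes called was 2 in the other alternatives, 3 without a filter on low counts (MSRB1 added, adjusted p = 0.00817 in edgeR) and 1 to 2 with 1 library left out. GPX1 changed sign with library size alone (-0.11) and without knockdown library 3 (-0.050), never past the threshold, and ran from there to 0.45 with 1 library left out. Relative to the median of all features, -0.30 with library size alone, GPX1 was at 0.19 there. MSRB1, TXNRD2, SELENOW, SELENOH and SEPHS2 kept their sign in each alternative that tested them, and all but MSRB1 stayed short of the threshold in each. The filter at 10 CPM left out SELENOW and SELENOH.

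Over all features 364 were called (173 higher, 191 lower in the knockdown). The count was 781 in DESeq2, 735 without a filter, 602 with at least 10 CPM in 3 libraries, 208 with the replicate block and 47 to 171 with 1 library left out. The cause of the larger counts was not tested. The split moved to 63 higher and 334 lower under library size alone. Same-numbered libraries deviated together at r = -0.0065, -0.015 and 0.039 over all tested features. No strong pairing is seen there, but the noise of low counts could hide a weak one. The replicate block left GPX4 (adjusted p = 0.00789 in edgeR) and TXNRD1 (0.042 in edgeR) called. Thinning every library to the same total, chosen after seeing the data, gave 451 calls, GPX4 and TXNRD1 among them, but the counts outside the most abundant features still differed in depth. Levels over a total without the 50 most abundant features were higher for every gene in both groups, by construction. SELENOW had the fewest counts of the 8 genes, and how much depth limits it was not tested.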
